A study of Mus musculus with 54 samples.

Results

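Wide distal peaks are the merged accessible regions that spanned 1500 to 5000 bp and had their centre more than 1 kb from every transcription start site (TSS) of the GENCODE M21 annotation, on the 19 autosomes. The list of merged peaks held 113737 regions, of which 88432 were distal and autosomal, and 977 of these met the width limits. They were selected on their measured width, so that their width is a description and not a result. They made up 1.1% of the distal autosomal peaks and 4.09% of the bases that those peaks covered. The 22921 distal autosomal peaks of 300 to 500 bp, called narrow distal peaks here, served as the comparison.

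Open chromatin was mapped by ATAC-seq, in which a transposase inserts sequencing adapters into DNA that is not wrapped tightly in nucleosomes. The accessible elements of a cell are mostly promoters, enhancers and sites bound by the insulator protein CTCF, and a bound enhancer or insulator usually opens the space of about a nucleosome. Longer open stretches are typical of CpG islands, sequences that have kept their CpG dinucleotides because their cytosines stay unmethylated in the germ line. Most CpG islands lie at promoters, but others lie inside or beside genes, and many of those near developmental regulators are covered by Polycomb proteins in embryonic stem cells.

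The series held 54 libraries in 24 groups, all from mouse embryonic stem cells of the ZHBTc4 line, grown in serum with LIF, CHIR99021 and PD184352. In these cells doxycycline shuts off the Pou5f1 transgene, and the OCT4 made instead was an mCherry-OCT4-AID fusion that is degraded on addition of indole-3-acetic acid (IAA). The cells also carried YPet-MD, a mitotic degradation reporter used to sort cell cycle phases. All groups had received doxycycline. A set of 22 libraries compared 500 nM IAA for 2 h with no IAA after 26 h of doxycycline, in cells sorted as EG1 or LG1 (the early and the late part of G1), S or SG2, with 3 libraries in each group but 2 in those of SG2. A set of 16 compared the same phases with or without 2.5 h of IAA followed by 4.5 h after washing, at 31 h of doxycycline. The remaining 16 were unsorted cells at 34 h of doxycycline, untreated or given IAA for 30 min or for 1, 2, 3, 4, 6 or 10 h. The merged list joined the peaks of all conditions and gave positions without a value per library, so it shows where chromatin was open in at least some of the cells and cannot compare treatments or phases. Whether a wide peak was a single open stretch in 1 library or the union of narrower peaks called in several cannot be told apart in the list. The reads behind each peak are likewise unknown here.

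Start sites of most genes of the lists were covered in the whole list. Of 18 core pluripotency genes, 17 had a peak centre within 1 kb of a TSS, and so had all 25 signalling genes of stem cells, all 20 lineage transcription factors and 19 of 19 autosomal housekeeping genes. Of 19 autosomal genes expressed in terminally differentiated tissues, 4 had such a peak. Over all 20807 autosomal protein-coding genes the share was 72.3%. The counts do not set pluripotency genes apart from lineage or housekeeping genes.

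The sequences of a few wide peaks show the range of the class. Each is a window of 300 bases from the GRCm38 plus strand at the centre of the peak, in lower case with every CpG in capitals. The first pair, the members with the highest and the lowest ratio of observed to expected CpG among those whose window held no UTR, were taken by rule.
beside Unc45b, chr11:82931582-82931881: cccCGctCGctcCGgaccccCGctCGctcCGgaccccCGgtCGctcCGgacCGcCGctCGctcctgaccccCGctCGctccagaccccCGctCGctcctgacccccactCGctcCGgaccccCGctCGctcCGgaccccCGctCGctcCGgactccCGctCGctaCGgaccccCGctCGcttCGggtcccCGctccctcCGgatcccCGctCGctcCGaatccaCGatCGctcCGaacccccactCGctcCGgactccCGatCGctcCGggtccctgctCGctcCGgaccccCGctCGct
immunoglobulin heavy chain locus, chr12:113335740-113336039: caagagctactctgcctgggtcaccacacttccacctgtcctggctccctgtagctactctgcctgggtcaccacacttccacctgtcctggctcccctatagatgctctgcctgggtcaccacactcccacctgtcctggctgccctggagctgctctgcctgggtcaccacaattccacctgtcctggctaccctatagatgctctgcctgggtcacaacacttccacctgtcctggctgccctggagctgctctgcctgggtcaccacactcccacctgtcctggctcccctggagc
The first peak spanned 2596 bp, was centred in an annotated intron 1870 bp upstream of Unc45b, which encodes a myosin chaperone, and had a CpG ratio of 1.28. The second spanned 1769 bp and lay 5367 bp from the TSS of Ighg1, an immunoglobulin constant region gene, and held no CpG at all. Both windows were built from short units repeated in tandem, although the repeat mask covered 0% of the first peak and 11.6% of the second. Of the 12-base words in the central window, 47.1% occurred more than once in the first peak and 77.2% in the second.

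Members beside developmental regulators show the more common CpG-rich kind. They were chosen after their values were seen.
beside En1, chr1:120603349-120603648: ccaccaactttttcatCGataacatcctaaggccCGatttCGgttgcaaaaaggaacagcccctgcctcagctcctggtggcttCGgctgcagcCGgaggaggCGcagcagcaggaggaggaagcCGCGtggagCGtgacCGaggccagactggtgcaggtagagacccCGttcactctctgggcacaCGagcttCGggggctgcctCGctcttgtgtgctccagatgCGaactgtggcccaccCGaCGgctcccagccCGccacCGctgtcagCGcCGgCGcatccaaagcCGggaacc
beside Prdm12, chr2:31636108-31636407: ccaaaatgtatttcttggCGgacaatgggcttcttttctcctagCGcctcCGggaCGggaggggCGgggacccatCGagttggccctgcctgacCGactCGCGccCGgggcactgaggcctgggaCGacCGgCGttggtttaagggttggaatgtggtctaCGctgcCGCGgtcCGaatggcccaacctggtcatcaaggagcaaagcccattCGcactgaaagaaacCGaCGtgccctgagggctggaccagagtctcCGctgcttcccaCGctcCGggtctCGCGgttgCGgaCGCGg
beside Nr2f2, chr7:70369785-70370084: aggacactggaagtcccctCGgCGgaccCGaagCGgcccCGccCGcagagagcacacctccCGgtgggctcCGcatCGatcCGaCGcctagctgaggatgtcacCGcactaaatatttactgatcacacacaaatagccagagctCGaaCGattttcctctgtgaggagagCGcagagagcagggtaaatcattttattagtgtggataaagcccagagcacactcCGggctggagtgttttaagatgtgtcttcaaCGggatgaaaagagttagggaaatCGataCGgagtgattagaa
En1 encodes a homeobox factor of the midbrain and limb, Prdm12 a regulator of sensory neurons, and Nr2f2 a nuclear receptor of mesoderm and vessels. The peaks at En1 and Prdm12 were centred in exons and that at Nr2f2 in an annotated intron, upstream of the nearest TSS of Nr2f2. They lay 1081, 3779 and 3200 bp from the TSS of these genes. The 3 windows held 23, 28 and 19 CpGs in the same order, and no 12-base word occurred more than once in any of them. The peaks spanned 1577, 1897 and 1618 bp, with CpG ratios of 0.847, 0.729 and 0.633.

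Members beside pluripotency and signalling genes, and the widest member, show the CpG-poor kind. These 3 were also chosen after their values were seen.
beside Nanog, chr6:122712482-122712781: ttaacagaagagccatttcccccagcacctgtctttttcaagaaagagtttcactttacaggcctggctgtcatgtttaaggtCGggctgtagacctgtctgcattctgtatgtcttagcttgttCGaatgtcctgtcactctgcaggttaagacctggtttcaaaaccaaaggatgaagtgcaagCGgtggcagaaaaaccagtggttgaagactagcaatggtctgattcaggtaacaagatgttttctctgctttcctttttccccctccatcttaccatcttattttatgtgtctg
beside Lefty2, chr1:180888973-180889272: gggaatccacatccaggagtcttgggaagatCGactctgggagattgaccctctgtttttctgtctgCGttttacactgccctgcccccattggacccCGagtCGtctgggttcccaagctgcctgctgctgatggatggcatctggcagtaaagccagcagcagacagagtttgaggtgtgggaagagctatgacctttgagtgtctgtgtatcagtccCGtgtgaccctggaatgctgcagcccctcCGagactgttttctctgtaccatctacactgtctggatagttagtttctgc
start of chromosome 17, chr17:3030414-3030713: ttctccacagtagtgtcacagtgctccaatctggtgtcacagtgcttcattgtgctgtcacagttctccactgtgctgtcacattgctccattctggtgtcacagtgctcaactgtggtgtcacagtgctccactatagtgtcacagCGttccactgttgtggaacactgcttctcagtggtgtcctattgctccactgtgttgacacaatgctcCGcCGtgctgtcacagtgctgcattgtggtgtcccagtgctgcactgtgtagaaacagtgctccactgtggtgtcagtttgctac
Nanog encodes a homeobox factor of the pluripotent state, and Lefty2 an inhibitor of Nodal signalling. The Nanog peak was centred in an exon 5064 bp from the TSS and the Lefty2 peak between genes 3985 bp from the TSS. Their windows held 3 and 6 CpGs. The widest member, of 4953 bp, held 3 CpGs in its window and 59.1% of its bases were repeat-masked. It lay 30563 bp from the first assembled base of its chromosome.

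The members were strongly skewed towards the lower width limit. Their median width was 1688 bp, with a 25th percentile of 1576 bp and a 75th of 1885 bp, against a median of 379 bp over all distal autosomal peaks. There were 799 members below 2000 bp, 155 from 2000 to below 3000 bp and 23 of 3000 bp or more. The 3 members just inside the lower limit, each of 1500 bp, lay in an exon of the non-coding gene Gm26651 on chromosome 13, between genes 32674 bp from Txn2, which encodes mitochondrial thioredoxin, and in an intron annotation 23730 bp from Kirrel, which encodes a cell adhesion protein. Their CpG ratios were 0.164, 0.218 and 0.253. The 3 distal peaks just outside, each of 1499 bp, had Epb41l4a, Clstn1 and Tac1 as nearest protein-coding genes and CpG ratios of 0.212, 0.261 and 0.128. The authors state that peaks above 5 kb, and those overlapping input peaks or a blacklist, were taken out, but the list still held peaks above 5 kb. At the upper limit the members of 4137, 4329 and 4953 bp were followed by distal peaks of 5166, 5716 and 5767 bp, all 3 of these on chromosome 4.

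Wide distal peaks were richer in G and C and much richer in CpG than narrow ones. The mean GC content per autosome was 51.2% ± 1.72 (SD, n = 19 autosomes) in wide and 47.8% ± 1.03 in narrow peaks, and the wide peaks were higher on 19 of 19 autosomes. The difference of 3.34 percentage points had an adjusted p of 3.75e-05 (sign-flip permutation test, two-sided, with the autosomes as units, 100000 resamples and Benjamini-Hochberg adjustment for 15 results), which is the adjusted value of the smallest p these resamples can give, 2e-05. The ratio of observed to expected CpG, which compares the CpGs counted with those a sequence of the same C and G content would hold by chance, was 0.42 ± 0.048 in wide and 0.245 ± 0.0141 in narrow peaks. It too was higher in wide peaks on all 19 autosomes, with the same adjusted p. Over all members the density was 27.7 CpGs per kb, against 13.0 in the 1 kb on each side of them.

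The excess was centred on the peaks. GC content in wide peaks exceeded that of their own flanks by 5.54 percentage points ± 0.725 (SD, n = 19), and in narrow peaks by 3.82 ± 0.268, a difference with an adjusted p of 3.75e-05 (sign-flip permutation test). The CpG ratio exceeded that of the flanks by 0.173 ± 0.0442 in wide and by 0.0317 ± 0.0072 in narrow peaks, with the same adjusted p. In bins of 100 bp the CpG ratio of the members was 0.457 just before the centre and 0.213 in the bin 2950 bp before it. In narrow peaks the same bins gave 0.249 and 0.207.

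**Figure D1:**
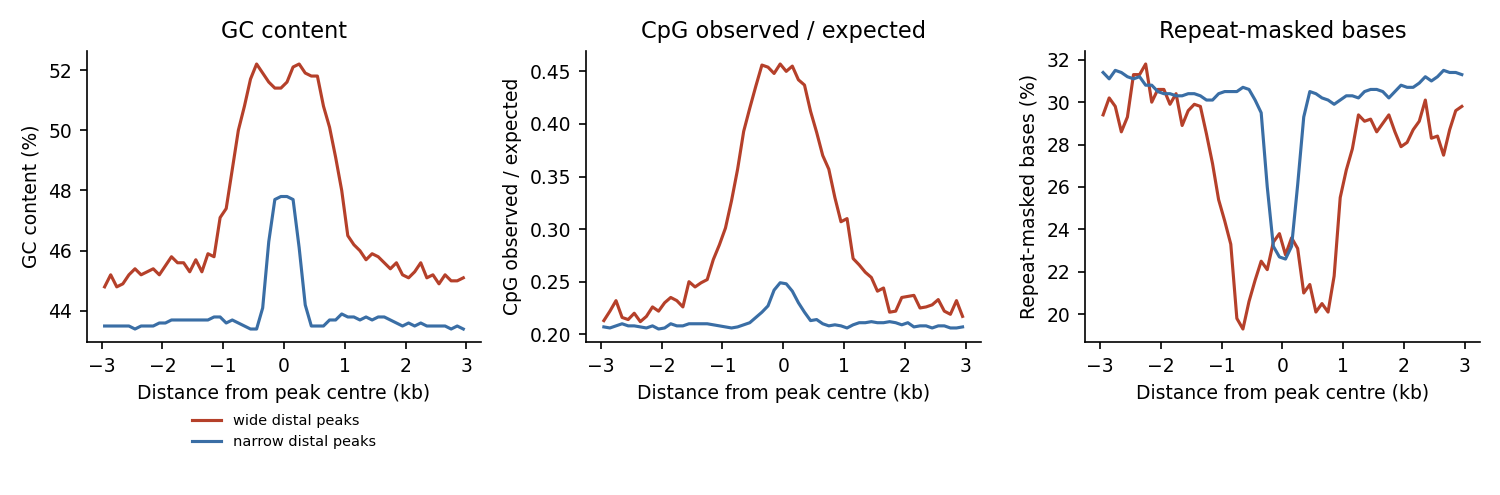
GC content (%), the ratio of observed to expected CpG and the share of repeat-masked bases (%) in bins of 100 bp against the distance from the peak centre (kb), over 977 wide (red) and 22921 narrow (blue) distal peaks. The CpG ratio of wide peaks rose from 0.213 at 2950 bp before the centre to 0.457 at the centre, while that of narrow peaks went from 0.207 to 0.249.

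Repeat content did not pass the test. The repeat-masked share per autosome was 22.0% ± 4.02 in wide and 22.6% ± 2.24 in narrow peaks, lower in wide peaks on 10 of 19 autosomes and higher on 9, and the adjusted p was 0.532 (sign-flip permutation test). Without the peaks in the first assembled 1 Mb of each chromosome the difference was -1.66 percentage points with an adjusted p of 0.0393. Relative to the flanks the share differed by -6.4 points in wide and -7.05 points in narrow peaks, with an adjusted p of 0.441 for the difference. Within the members the share was not even. It was 19.3% at 650 bp before the centre, 23.8% in the bin just before the centre and 20.1% at 750 bp after it. Members more than 50% repeat-masked numbered 128, or 13.1% (95% Wilson interval 11.1 to 15.4), against 15.4% of narrow peaks, and 17 members held no masked base.

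The CpG excess came with a distinct group of members. Peaks with a GC content of at least 50% and a CpG ratio of at least 0.6 were called CpG-rich, a limit close to the usual definition of a CpG island. There were 167 CpG-rich members, 17.1% of the class (14.9 to 19.6), and 451 CpG-rich narrow peaks, 1.97% of theirs (1.8 to 2.16). Per autosome the shares were 17.0% ± 6.44 and 2.0% ± 0.641 (SD, n = 19), with the lowest wide share at 6.45% on chromosome 14 and the highest at 32.8% on chromosome 7. The lowest wide share lay above the highest narrow share of 3.53%, and the adjusted p was 3.75e-05 (sign-flip permutation test). Since a ratio over a short peak varies more by counting alone, the same limits were applied to the central 300 bp of each peak, where the shares were 17.6% ± 4.4 and 2.37% ± 0.794. The size of the difference moved with the distance from a TSS and with the width limit. It was 9.45 points with the centre over 2.5 kb from every TSS, where the shares were 11.1% ± 5.62 and 1.68% ± 0.52, and 10.2 points with the whole peak over 1 kb away, each higher on 18 of 19 autosomes. With a lower width limit of 1200 bp it was 9.76 points, and with 2000 bp it was 27.4 points.

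**Figure D2:**
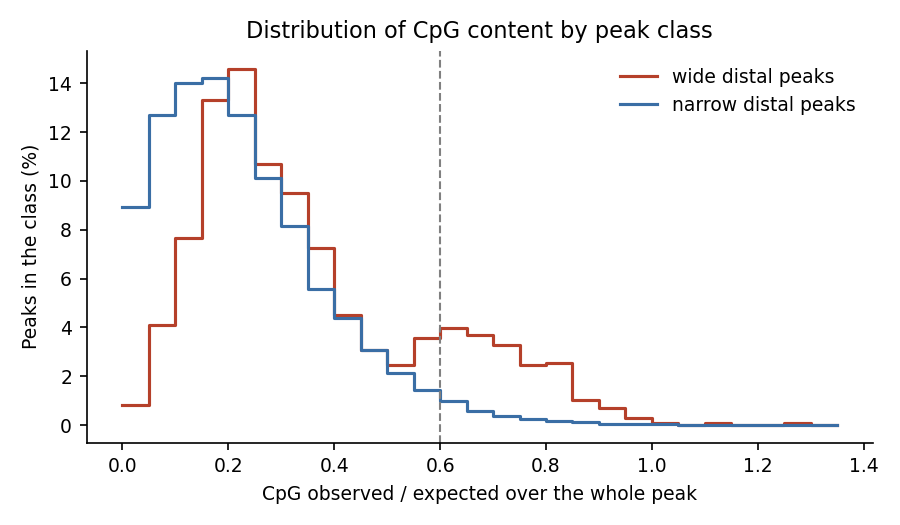
Share of peaks (%) in bins of 0.05 of the ratio of observed to expected CpG over the whole peak, for wide (red) and narrow (blue) distal peaks, with the limit of 0.6 dashed. Wide peaks had a first maximum of 14.6% in the bin from 0.2 and a further one of 3.99% in the bin from 0.6, where narrow peaks held 0.982%.

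The remaining 810 members were nearer to the narrow peaks in composition. Without CpG-rich peaks in either class, the GC content was 49.0% ± 1.61 in wide and 47.6% ± 0.984 in narrow peaks, higher on 17 of 19 autosomes. The CpG ratio was 0.297 ± 0.0383 against 0.231 ± 0.0121 and higher on all 19. It exceeded that of the flanks by 0.0789 ± 0.034 against 0.0209 ± 0.00534, also higher on all 19, a difference of 0.058 in place of 0.142 with all peaks. The excess of GC over the flanks, in contrast, was 3.87 points ± 0.828 against 3.68 ± 0.28, with an adjusted p of 0.371 (sign-flip permutation test), and the repeat-masked share was 25.3% ± 4.81 against 22.6% ± 2.09, with an adjusted p of 0.034.

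Wide distal peaks lay more often in exons and less often in introns. The centre fell in an exon of any annotated transcript in 139 members, 14.2% (12.2 to 16.6), and in 5.56% of narrow peaks (5.27 to 5.86). Per autosome the exon shares were 14.1% ± 5.07 and 5.63% ± 1.29, higher in wide peaks on 18 of 19 autosomes, with an adjusted p of 3.75e-05 (sign-flip permutation test). The intron shares were 36.5% ± 6.48 and 44.9% ± 3.74, lower in wide peaks on 16 of 19, with the same adjusted p. Intergenic shares were 49.4% ± 6.43 and 49.5% ± 4.6, a difference of -0.0624 points with an adjusted p of 0.961. When the whole peak had to lie more than 1 kb from every TSS, the exon shares were 10.2% ± 5.28 and 5.47% ± 1.25 with an adjusted p of 0.0013, and the intergenic share became 4.04 points higher in wide peaks with an adjusted p of 0.00165.

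The CpG-rich members held most of the exonic ones. Of the 167, 85 had their centre in an exon, 50.9% (43.4 to 58.4), against 54 of the 810 other members, 6.67% (5.15 to 8.6). In a test added after these shares were seen, the exon share per autosome was 53.2% ± 17.5 in CpG-rich and 6.26% ± 4.38 in other members and higher on all 19 autosomes, with an adjusted p of 2e-05 (two-sided sign-flip permutation test, 2 results). CpG-rich narrow peaks were exonic in 26.6% (22.7 to 30.9). With CpG-rich peaks left out of both classes, the exon shares of wide and narrow peaks were 6.26% ± 4.38 and 5.18% ± 1.06, with an adjusted p of 0.311.

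Wide peaks also lay closer to start sites, on the downstream side, and in denser neighbourhoods. The median distance from the centre to the nearest TSS was 10.4 kb ± 1.85 per autosome against 13.8 kb ± 2.77, shorter in wide peaks on 16 of 19 autosomes, with an adjusted p of 0.00054 (sign-flip permutation test). Members between 1 and 2 kb from a TSS made up 13.0% (11.0 to 15.3) and narrow peaks at that distance 7.04%, whereas more than 50 kb away the shares were 7.47% (5.98 to 9.29) and 16.6%. The whole peak reached within 1 kb of a TSS in 121 members and included a TSS in 18, which follows from a rule that reads the distance at the centre. Of the 18, 13 were among the 167 CpG-rich members and 5 among the 810 others. Among peaks with a TSS within 20 kb, 59.3% ± 9.11 of wide and 52.4% ± 2.31 of narrow peaks lay downstream of it, with an adjusted p of 0.0054. When the whole peak had to lie more than 1 kb from every TSS, this excess was 3.48 points with an adjusted p of 0.179, and the median distances were 12.2 kb ± 2.14 and 14.1 kb ± 2.83 with an adjusted p of 0.0365.

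Distance to the TSS differed within the class too. The median distance was 2959 bp in CpG-rich members and 11297 bp in the others. Per autosome these were 4.11 kb ± 3.56 and 12.0 kb ± 2.82, shorter in CpG-rich members on 18 of 19 autosomes, with an adjusted p of 2e-05 (sign-flip permutation test, added after the values were seen). A TSS lay within 5 kb of 106 CpG-rich members, 63.5% (55.9 to 70.4), and of 24.1% of the other members (21.3 to 27.1). Narrow peaks differed in the same direction, with median distances of 6430 bp in CpG-rich and 13546 bp in other narrow peaks. Of these, 43.5% and 22.0% had a TSS within 5 kb. Without CpG-rich peaks, the wide and narrow classes had median distances of 12.0 kb ± 2.82 and 13.9 kb ± 2.79 and an adjusted p of 0.089.

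A wide peak had on average 1.55 ± 0.326 protein-coding genes with a TSS within 50 kb and a narrow peak 1.29 ± 0.354, with an adjusted p of 0.0006 (sign-flip permutation test). This difference was not past the threshold against peaks of 500 to 1000 bp (0.105 genes, adjusted p 0.0988), among members of 2000 bp or more (0.149 genes, 0.337) or without CpG-rich peaks (0.103 genes, 0.233). Other distal peaks centred 2.5 to 50 kb away numbered 6.75 ± 1.19 for wide and 5.44 ± 0.648 for narrow peaks, higher on 19 of 19 autosomes, with an adjusted p of 3.75e-05. A wide distal peak at that distance was present for 15.4% ± 9.18 of wide and 6.35% ± 1.41 of narrow peaks, with an adjusted p of 0.0002. This last share ranged over the autosomes from 0 to 37.2% in wide peaks and was higher than in narrow peaks on 17 of 19. Among members of 2000 bp or more it was higher on 8 autosomes and lower on 10, with means of 12.4% ± 16.3 and 1.16% ± 0.776.

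**Figure D3:**
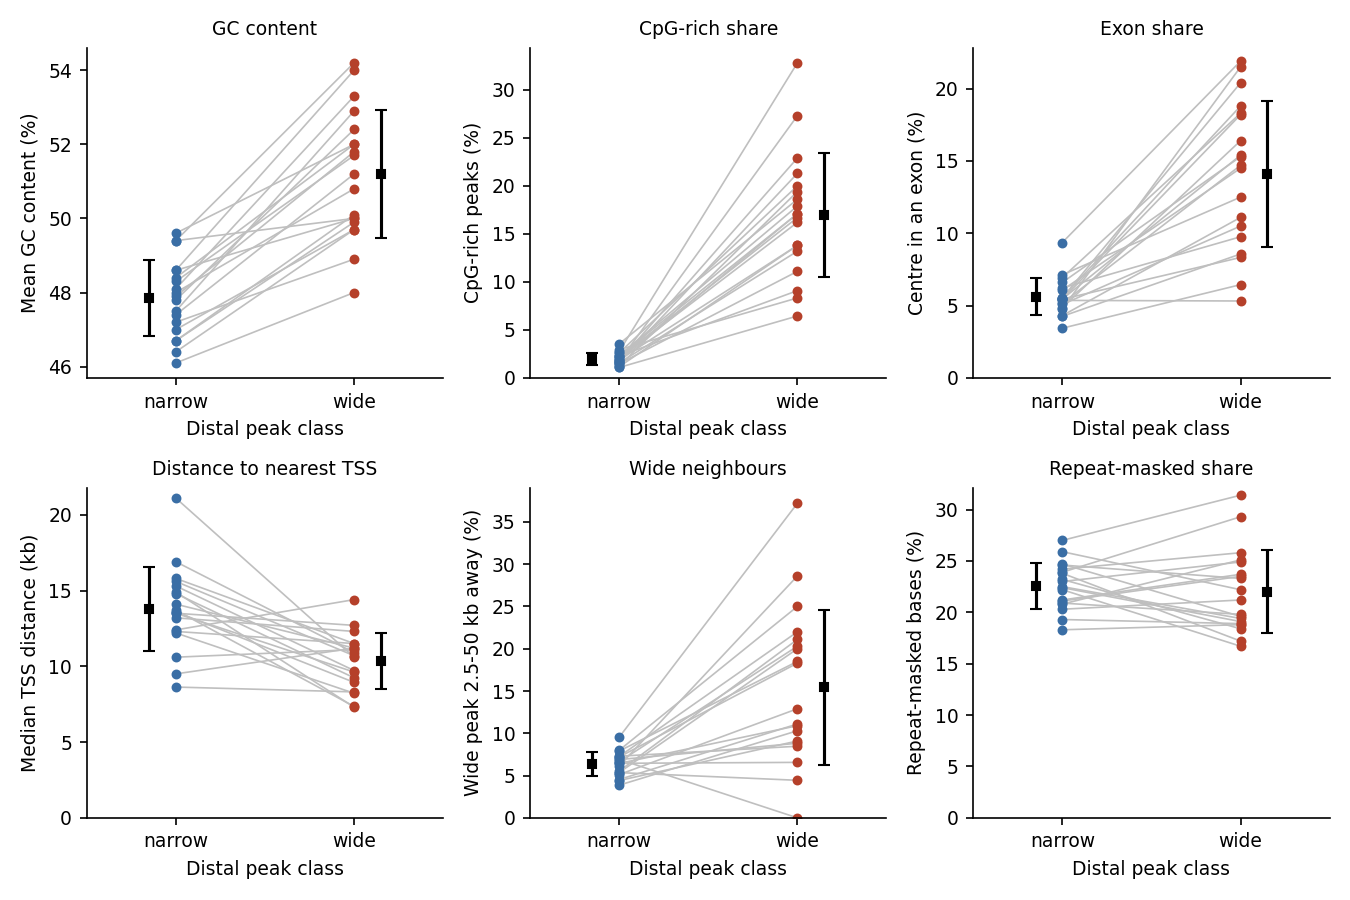
GC content, CpG-rich share, exon share, TSS distance, wide neighbours and repeat-masked share in narrow (blue) and wide (red) distal peaks, 1 point per autosome with a grey line joining the classes of an autosome, and black squares with bars for the mean and SD over 19 autosomes. The CpG-rich share of wide peaks ran from 6.45 to 32.8%, all above the narrow shares, while the repeat-masked shares overlapped.

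The KLF, AP-2 and NRF1 motifs were denser in wide peaks, and the CTCF motif was the one with the largest difference among those sparser. Matches were counted on both strands, each start counted once, and a base may belong to matches of more than 1 motif. Of 15 motifs, 3 were denser in wide and 6 in narrow peaks by matches per kb (sign-flip permutation test, adjusted over the 15 motifs).

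The CTCF motif, searched with 1 mismatch allowed, had 0.216 matches per kb ± 0.072 (SD, n = 19) in wide and 0.466 ± 0.0873 in narrow peaks. It was lower on 19 of 19 autosomes, with an adjusted p of 0.00015 (sign-flip permutation test). The central 300 bp held a match in 41 members, 4.2% (3.11 to 5.64), in 13.6% of narrow peaks (13.2 to 14.1) and in 12.8% of all distal peaks. Anywhere in the peak, a match stood in 30.3% of members, 16.7% of narrow and 16.1% of all distal peaks, which are shorter. In the whole members the density was 1.92 times that of their flanks, and in narrow peaks 4.45 times.

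KLF factors bind GC-rich boxes and include the pluripotency regulators KLF2, KLF4 and KLF5. Their letters GGGNGNGGC occurred 0.649 ± 0.167 times per kb in wide and 0.426 ± 0.0755 times in narrow peaks, higher on 17 of 19 autosomes, with an adjusted p of 0.000225 (sign-flip permutation test). Of the central windows of 300 bp, 16.7% of members, 11.0% of narrow peaks and 12.1% of all distal peaks held them. The AP-2 letters GCCNNNGGC, bound by factors of trophoblast and neural crest, reached 0.668 ± 0.238 per kb in wide and 0.368 ± 0.0523 in narrow peaks, higher on all 19 autosomes, with an adjusted p of 0.00015. They stood in 16.7%, 10.3% and 11.1% of the central windows in the same order. The KLF density was 2.58 times that of the flanks in members, 2.1 times in narrow and 2.33 times in all distal peaks. For AP-2 the values were 2.59, 1.9 and 2.11 times. Whether these densities follow the GC content of the peaks was not tested. The NRF1 letters GCGCATGCG, found at CpG-island promoters, were rare, with 32 matches in 21 members and 28 matches in 22 narrow peaks, and were present in 0.205% of members' central windows and 0.129% of all distal ones. Without CpG-rich peaks KLF was still denser in wide peaks, by 0.141 per kb, and AP-2 by 0.18 per kb, while for NRF1 the adjusted p became 0.0733. NRF1 was also not past the threshold in the central 300 bp, with 0.757, or among members of 2000 bp or more, with 0.156. The motifs of ZIC and ETS factors did not pass the test. ZIC factors of the neural plate, with the letters CAGCAGG found in 12.7% of all distal central windows, had 0.42 ± 0.0794 matches per kb in wide and 0.468 ± 0.062 in narrow peaks and an adjusted p of 0.102, and were sparser past the threshold among members of 2000 bp or more and against peaks of 500 to 1000 bp, with 0.0312 and 0.037. ETS factors, with the letters CCGGAAGT found in 0.512% of those windows, had 0.0211 ± 0.0135 and 0.017 ± 0.00691 matches per kb and an adjusted p of 0.248, and were denser in wide peaks past the threshold with a lower width limit of 1200 bp, with 0.0278.

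Other motifs were sparser per kb in wide peaks, although a larger share of members than of narrow peaks held each of them somewhere. NFY, a CCAAT-box factor with the letters CCAATCA, had 0.11 ± 0.0302 matches per kb against 0.179 ± 0.0265, with an adjusted p of 0.000225 (sign-flip permutation test). It was present in 1.84% of members' central windows, 4.7% of narrow ones and 4.51% of all distal ones. Whole peaks held it in 16.2%, 5.99% and 6.51% of cases in the same order. AP-1, the dimer of JUN and FOS proteins with the letters TGANTCA, had 0.278 ± 0.0723 against 0.38 ± 0.033, with an adjusted p of 0.00048. In the central windows alone the AP-1 shares were close, at 9.52% of members, 10.6% of narrow and 10.3% of all distal peaks, and the adjusted p there was 0.54. Over whole peaks the AP-1 shares were 38.1%, 13.4% and 15.1%. TEAD, the partner of YAP with the letters ACATTCC, ESRRB, an orphan nuclear receptor of the pluripotency network with the letters CAAGGTCA, and SOX factors with the letters CATTGT were sparser too, with wide minus narrow differences of -0.0554, -0.0372 and -0.0969 matches per kb and adjusted p of 0.0012, 0.00617 and 0.0483 (sign-flip permutation test). All distal central windows held these letters in 6.48%, 5.04% and 19.1% of cases. TEAD, ESRRB and SOX did not pass the test in the central windows, with adjusted p of 0.123, 0.0963 and 0.162. ESRRB was also not past the threshold with a lower width limit of 1200 bp, with 0.182, with the whole peak over 1 kb from every TSS, with 0.0552, or without CpG-rich peaks, where the difference was -0.0142 and the adjusted p 0.402. The SOX difference without CpG-rich peaks was -0.00895, with an adjusted p of 0.867.

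The motifs of OCT4 itself did not pass the test of density. The composite OCT4::SOX2 motif, searched with 2 mismatches allowed, was found in 26 members, 2.66%, and once in each, and in 0.75% of narrow and 0.875% of all distal peaks, which are shorter. In central windows of 300 bp it was present in 0.409% of members, 0.602% of narrow and 0.589% of all distal peaks. Its density was 0.0154 ± 0.0136 per kb in wide and 0.0188 ± 0.00722 in narrow peaks, with an adjusted p of 0.366 (sign-flip permutation test). The OCT letters ATGCAAAT, present in 2.04% of all distal central windows, had 0.0608 ± 0.0394 matches per kb against 0.0739 ± 0.0192, with an adjusted p of 0.257. The OCT letters were sparser past the threshold under 4 alternatives, with adjusted p of 0.0207 to 0.0364, and so was OCT4::SOX2 among members of 2000 bp or more, with 0.0219. Of the 26 members with the composite motif, 3 are named here, chosen after the list was seen: the Nr2f2 peak printed above, an intronic peak 10425 bp from the TSS of Tet2, which encodes an enzyme that oxidises methylated cytosine, and an exonic peak 1932 bp from the TSS of Pcdh10, which encodes a protocadherin. None of the members near a core pluripotency gene held a match. The search compared sequence with a consensus, so forms of the motif with more than 2 mismatches were not counted.

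**Figure D4:**
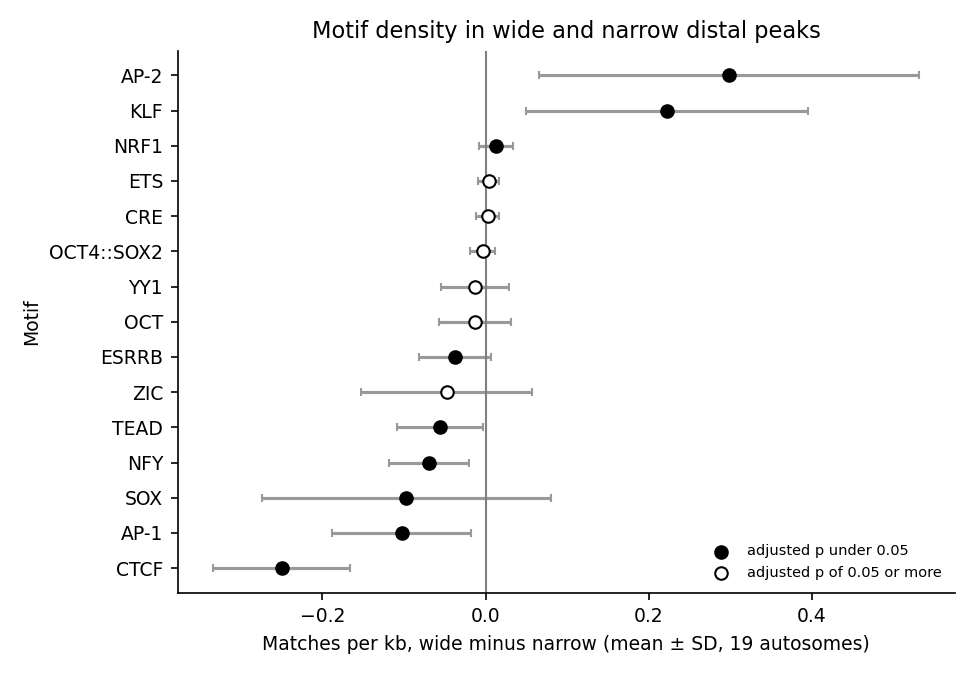
Difference in motif matches per kb between wide and narrow distal peaks (x axis, wide minus narrow, mean and SD over 19 autosomes) for 15 motifs, with filled points where the adjusted p was under 0.05. AP-2 and KLF lay farthest to the right at 0.299 and 0.223 and CTCF farthest to the left at -0.25.

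Wide peaks of different width differed among themselves. Members of 2000 bp or more had a mean GC content of 53.5% ± 4.44 per autosome and a CpG ratio of 0.498 ± 0.143, against 50.8% ± 1.63 and 0.397 ± 0.0472 in those below 2000 bp, with adjusted p of 0.0325 and 0.0302 (sign-flip permutation test, 4 results). They lay 6.83 kb ± 4.65 from the nearest TSS, against 11.1 kb ± 2.45, with an adjusted p of 0.0214. Repeat-masked shares of 23.0% ± 9.86 and 21.2% ± 3.37 gave an adjusted p of 0.391. CpG-rich members numbered 120 of 799 below 2000 bp. Their share was 27.7% from 2000 to below 3000 bp and 17.4% from 3000 bp. Pooled over members, GC content was 51.1% below 2000 bp, 53.2% from 2000 to below 3000 bp and 50.2% from 3000 bp. In the same order the CpG ratios were 0.4, 0.507 and 0.31 and the repeat-masked shares 21.1, 20.2 and 46.0%. The higher GC content and CpG ratio were thus not seen in the 23 members of 3000 bp or more.

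The widest members lay largely at chromosome starts. Of the 23 members of 3000 bp or more, 12 lay in the first 1 Mb after the first assembled base of a chromosome, 52.2%, against 0.501% of members below 2000 bp and 0.737% of narrow peaks. These starts adjoin the centromere in the mouse, whose chromosomes are telocentric, and carry satellite and duplicated sequence. The 23 members of any width found there, 2.35% of the class (1.57 to 3.51), came from 8 chromosomes, of which chromosome 4 held 7, chromosome 11 held 5 and chromosome 17 held 4. Their bases were 52.5% repeat-masked. Of the 10 widest members, 5 were among them. Their nearest protein-coding genes were Scaf8 on chromosome 17, for peaks of 4953 and 3635 bp, Sfi1 on chromosome 11, for 4329 bp, and the vomeronasal receptor genes Vmn1r2 and Vmn1r238, for 3952 and 3939 bp.

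The other 5 of the 10 widest lay farther in. They were a peak of 4137 bp beside Vmn1r77 on chromosome 7, of 3929 bp in Gm21738 on chromosome 14, of 3902 bp 1990 bp from the TSS of Ppp2r5a, which encodes a regulatory subunit of protein phosphatase PP2A, of 3808 bp with Zfp990 as the nearest protein-coding gene and of 3672 bp with Trpm1 as the nearest. Their repeat-masked shares ran from 27.4 to 84.1% and 4 of these 5 had a CpG ratio of 0.23 or less, the exception being Gm21738 at 0.807.

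Tandem structure was measured, after the printed sequences had been seen, as a central 300 bp window in which at least 25% of the 12-base words occurred more than once. It was found in 29 members, 2.97% (2.07 to 4.23), and 1.03% of narrow peaks (0.911 to 1.17). Per autosome the shares were 2.89% ± 2.8 and 1.02% ± 0.348, higher in wide peaks on 14 of 19, with p = 0.0102 (two-sided sign-flip permutation test, a single result). Among members of 3000 bp or more it was 5 of 23. In 11 of the 29 no more than 50% of the peak was repeat-masked. Whether any of these peaks overlap the input peaks or the blacklist was not tested. How reads from such sequence were placed and how that bears on the width of these peaks was not tested.

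**Figure D5:**
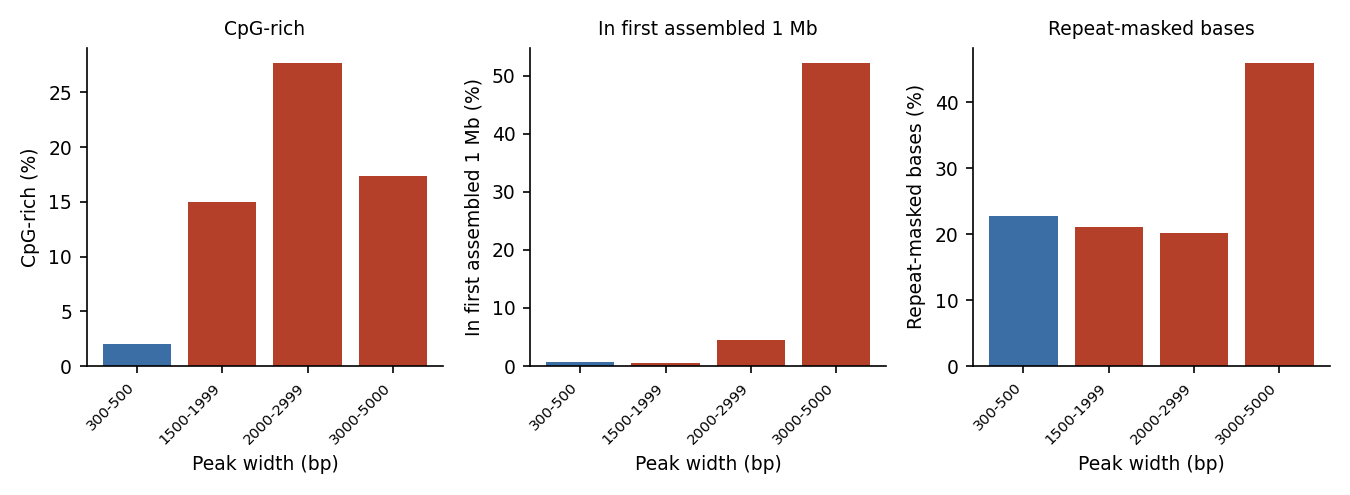
Share of CpG-rich peaks (%), share in the first assembled 1 Mb of a chromosome (%) and share of repeat-masked bases (%) by peak width (bp), for 22921 narrow peaks (blue) and for 799, 155 and 23 members in rising classes of width (red). The CpG-rich share was highest from 2000 to below 3000 bp at 27.7%, and the share at chromosome starts was highest from 3000 bp at 52.2%.

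Members were spread over all autosomes in unequal number. They made up from 0.625% of the distal peaks of chromosome 5 to 1.66% of those of chromosome 4, with a median of 1.13%. Chromosome 4 held 94 members, of which 7 lay in its first assembled 1 Mb, and chromosome 16 held 22.

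Few genes had more than 1 wide peak. Within 50 kb of a TSS, 1393 of 20807 autosomal protein-coding genes had at least 1 member, 6.69%, whereas 66.6% had at least 1 narrow distal peak. There were 94 genes with 2 members and 15 with 3 or more. Zfp988, a zinc finger gene of distal chromosome 4, had 5 members, and Gm16503, Zfp985 and Zfp981 nearby had 3 each. Sfi1, which encodes a centrosomal protein, had 4 and Vmn1r2 and Vmn1r3 had 3 each. Ppp2r5a had 5 members that covered 13290 bp, within 26 distal peaks in all. The 10 leading genes also included Cxxc5, which encodes a protein that binds unmethylated CpG, and Dlc1, a tumour suppressor gene, with 3 members each.

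By nearest protein-coding gene, without a limit on distance, Zfp988 led with 6 members. Nr2f2, Ppp2r5a and Vmn1r2 had 5 each. All 5 of Vmn1r2 and all 4 of both Scaf8 and Sfi1 lay in the first assembled 1 Mb. Those of Nr2f2 were spread from 115819 bp downstream of its TSS to 258454 bp upstream, and their CpG ratios were 0.331, 0.665, 0.554, 0.633 and 0.373 in the order of position, and 2 of them were CpG-rich.

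Of the gene lists, that of signalling genes had wide peaks near the largest share of its genes at 50 kb, but not at 20 kb, where 2 of 25 had one against 3 of 20 lineage genes and 2 of 18 core pluripotency genes, or with members of 2000 bp or more only, where 0 of 25 had one. Members lay within 50 kb of 8 of 25 signalling genes, 32.0% (17.2 to 51.6), against 6.69% of all protein-coding genes. The list was drawn up with earlier results of these data known, and its genes had a median of 9 distal peaks of any width within 50 kb against 5 over all genes. Lefty1 had 2 members, and Lefty2, its neighbour, had 1 that Lefty1 shared. Bmp4, a ligand of the BMP pathway, Il6st, the co-receptor of LIF, Axin2 and Lef1 of the WNT pathway, and Spry2 and Spry4, inhibitors of receptor tyrosine kinase signalling, had 1 each. Only the peak at Lef1, 3907 bp from its TSS, was CpG-rich, with a CpG ratio of 0.671. The other 17 genes, among them Socs3, Id1, Fgf4 and Myc, had none.

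For the core pluripotency genes the interval of the share included the share over all genes. Members lay near 2 of 18, 11.1% (3.1 to 32.8), against 6.69% of all protein-coding genes, while 15 of the 18 had a narrow distal peak and the median number of distal peaks of any width was 12. The 2 genes were Nanog and its neighbour Dppa3, which encodes a protein of oocytes and primordial germ cells. They shared a member of 1638 bp between genes, 44166 bp from the nearest TSS of Nanog and 36570 bp from that of Dppa3. Nanog also had the exonic member of 2318 bp printed above, and Dppa3 an intronic member of 1682 bp centred 1409 bp from its TSS. None of the 3 was CpG-rich. Pou5f1, Sox2, Klf4, Esrrb and Prdm14 had no wide distal peak within 50 kb, although Esrrb had 26 distal peaks of other widths there.

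Among lineage transcription factors, which are mostly silent in embryonic stem cells, 5 of 20 had a member (95% interval 11.2 to 46.9%), against 6.69% of all protein-coding genes. A CpG-rich member lay near 3 of the 20, against 1.81% of all protein-coding genes, and of the 1393 genes with any member 376 had a CpG-rich one. The CpG-rich ones lay 19891 bp from the TSS of Pax3, with a width of 2555 bp and a CpG ratio of 0.786, 28741 bp from that of Tbx5, with a ratio of 0.83, and 35729 bp from that of Sox1, with 0.645. Pax6 and Neurog2 had members with ratios of 0.412 and 0.547. The endoderm genes Gata4, Gata6, Sox17 and Foxa2 had none. Of 19 housekeeping genes 4 had a member, 21.1% (8.51 to 43.3), and of these Eef2 and Hsp90ab1 had a CpG-rich one. Of 19 terminal tissue genes 1 did, 5.26% (0.935 to 24.6), at Acta1, whose member was CpG-rich, covered an exon and lay 2507 bp from the TSS. The intervals of all 5 lists overlapped one another, and those of the core pluripotency and terminal tissue lists included the share over all genes.

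Among the CpG-rich members, the 15 widest were looked at after the group had been seen. Of these, 7 were centred in an exon, and these exonic ones lay 1013 to 1600 bp downstream of the TSS of Fzd8, a WNT receptor, Irf2bpl, Foxb1, a forkhead factor, Peg12, Adra2c, an adrenergic receptor, Egr4 and Npr3. Others lay 1036 bp upstream of Tshz3, a zinc finger factor, and 2557 bp upstream of Ccnd1, which encodes cyclin D1.

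By RefSeq gene descriptions, available for the nearest protein-coding gene of 940 members, homeobox or paired box genes were nearest to 27 members, 2.87% (1.98 to 4.15), and to 1.23% of narrow peaks. They made up 1.0% of all autosomal protein-coding genes. Among CpG-rich members they were nearest to 7 of 163, 4.29% (2.1 to 8.6), and among CpG-rich narrow peaks to 7.52% (5.4 to 10.4). The 7 were En1, Meis1, Mkx, Pax3, Pax5, Uncx and Zfhx3. Zinc finger genes were nearest to 6.7% of members (5.27 to 8.48) and 3.39% of narrow peaks and made up 3.3% of all genes. Vomeronasal receptor genes were nearest to 1.7% of members (1.05 to 2.75), none of them CpG-rich, and to 0.475% of narrow peaks, but made up 1.68% of all genes. Olfactory receptor genes were nearest to 0.851% of members (0.432 to 1.67) and 0.832% of narrow peaks, against 5.58% of all genes, and protocadherin genes to 0.106% (0.0188 to 0.6) and 0.285%, against 0.339%. These families were chosen after the nearest genes had been seen, and members near the same gene are not independent of each other.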

How the data were processed

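The deposited table was a list of merged ATAC-seq peaks, with chromosome, start and end (bp, GRCm38) for each and no value for any library. According to the methods and processing notes, the authors aligned reads with STAR 2.6.1c, removed duplicates with Picard, and merged with bedtools the peaks that MACS2 2.1.1.20160309 had called on the autosomes and sex chromosomes. The methods state that peaks above 5 kb and those overlapping input peaks or a blacklist were taken out, but the list used here still held peaks above 5 kb. Overlap with either was not tested. Whether peaks were called per library is not given in the sources used here.

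Peaks were annotated against all GENCODE M21 transcripts, and sequence and soft-masked repeats were read from GRCm38.p6. GC content was averaged over peaks of an autosome, while CpG ratios, repeats and motif densities were pooled over them. A CpG ratio was the CpG count times the length over the product of C and G counts. Exon, intron and intergenic calls were made at the peak centre. Wide and narrow classes were compared by a two-sided sign-flip permutation test on the 19 differences between them, 1 per autosome, with 100000 resamples (smallest p 2e-05) and Benjamini-Hochberg adjustment over 15 results (14 without CpG-rich peaks and 13 without repeat-masked peaks, where the share that defines them was not tested), over 15 motifs or over 4 width class results at a threshold of 0.05. These p-values measure the spread between autosomes and not between cultures. Intervals of shares are 95% Wilson intervals, which cover counting error only and treat peaks as independent. Gene lists were described by counts, with no test.

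Members and lists were chosen with earlier results of these data known. Genes named were all genes of the lists, the 10 genes with most members within 50 kb, the genes nearest to the 10 widest members, the peaks just inside and outside each width limit, and printed members. Other genes named, such as those of CpG-rich members, of homeobox genes, of members with the composite motif, of the nearest-gene counts and of peaks outside the comparison, were chosen after their values were seen. Numba 0.67.0, pandas 2.3.3, scipy 1.17.1 and numpy 2.4.6 were used under Python 3.11.15, and counting and tests were tested on simulated data. Alternatives changed the width limits, the TSS distance, the annotation, the neighbour distance, the chromosomes used and the window.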

Additional observations from a re-analysis of the deposited data

Results flagged for a closer look

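Chromosome X, which was outside the comparison, held 18 distal peaks of 1500 to 5000 bp among its 1319 distal peaks, 1.36%, against 0.625 to 1.66% on the autosomes. Named here after their values were seen, they included CpG-rich peaks beside Esx1, a placental homeobox gene, with a CpG ratio of 0.82, and 74157 bp from Bcor, a Polycomb subunit, with a ratio of 0.664. Above the upper width limit, although the stated processing took out such peaks, lay 8 distal autosomal peaks, the widest of 14606 bp in an intron annotation of chromosome 13 nearest to Ptpdc1. Of these 8, 5 were on chromosome 4, of which 3 had Zfp988 and 2 had Vmn1r2 as the nearest protein-coding gene. Neither group of peaks was used in the comparisons, and the share on X lay within the range of the autosomes.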

How the results depend on the processing

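No paired analysis was possible because the list holds no value per library. Precision was limited by the 22 to 94 members per autosome and, for widths of 3000 bp or more, by 23 members in all. Of 165 recomputed differences between wide and narrow peaks, 136 kept their direction and their side of the threshold. GC content, the CpG ratio, the CpG-rich share, the CpG excess over flanks, distal neighbours and wide neighbours did so under every alternative run, as did the 4 comparisons between width classes under theirs. The CpG-rich difference ranged from 9.45 to 27.4 points, and at 2000 bp the mean for wide neighbours was higher by 11.2 points while 8 autosomes were higher and 10 lower. The differences that follow are wide minus narrow, in percentage points, kb, genes or matches per kb, and p-values are adjusted values of the sign-flip permutation test. Causes were not tested unless an alternative removes peaks by construction.

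The repeat-masked share and the intergenic share, which passed no threshold as reported, changed sign. For repeats the difference was 0.235 with a lower width limit of 1200 bp, 0.439 with 2000 bp, 0.866 against peaks of 500 to 1000 bp, 0.852 with the whole peak over 1 kb from every TSS, 0.835 with the centre over 2.5 kb away, 0.921 in the central 300 bp, 2.69 without CpG-rich peaks and -1.66 without the first 1 Mb of chromosomes, the last 2 with adjusted p of 0.034 and 0.0393 in the permutation test. For repeats relative to flanks it was 1.14 at 1200 bp and 2.15 in the central 300 bp, both past the threshold. For the intergenic share it was 0.969 at 1200 bp, 1.02 against 500 to 1000 bp, 4.04 with the whole peak over 1 kb away, 2.95 with the centre over 2.5 kb away, 0.289 without chromosome 14, 0.291 with X added, 4.01 with protein-coding transcripts only and 4.28 without CpG-rich peaks, of which 4.04, 2.95, 4.01 and 4.28 passed the threshold as higher in wide peaks.

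The exon difference fell from 8.47 to 4.73 with the whole peak over 1 kb away and rose to 16.3 at 2000 bp. TSS distance went from -3.42 to -1.84 with the whole peak over 1 kb away. It was -6.94 at 2000 bp and -8.39 with protein-coding transcripts only. Called differences that were no longer past the threshold were the downstream share at 1200 bp (2.96), with the whole peak over 1 kb away (3.48) and the centre over 2.5 kb away (2.64), the intron share at 2000 bp (-9.1), and protein-coding genes within 50 kb at 2000 bp (0.149) and against 500 to 1000 bp (0.105). Without CpG-rich peaks, an alternative added after seeing the data like that on chromosome starts, this held for GC over flanks (0.186), the exon share (1.08), TSS distance (-1.86), the downstream share (4.35) and protein-coding genes (0.103).

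In the central 300 bp 2 motifs were sparser in wide peaks in place of 6, NFY and CTCF, and 2 were denser in place of 3, KLF and AP-2. Calls were gained, as sparser in wide peaks, by OCT (4 alternatives), ZIC (2), YY1 and OCT4::SOX2 (1 each) and, as denser, by ETS (1). ESRRB lost its call under 4. Motifs that changed sign had passed no threshold: CRE at 1200 bp (-0.00142) and without CpG-rich peaks (-0.00128), OCT4::SOX2 at 1200 bp (0.00137), ETS in the central 300 bp (-0.000143) and YY1 without peaks over 50% repeat-masked (0.00398). The SOX difference was past the threshold in the fit reported but not under 7 of the alternatives.

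Within 20 kb of a TSS, 2 core pluripotency, 2 signalling, 3 lineage, 1 terminal tissue and 2 housekeeping genes had a member, against 3.22% of all genes, so the signalling list no longer had the largest share. With members of 2000 bp or more only, the counts were 1 core pluripotency, 0 signalling, 1 lineage, 0 terminal tissue and 1 housekeeping gene, against 1.21%.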
